A study of Bos taurus with 18 samples.

Results

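Rumen papillae of control Holstein cows on a high-grain diet were compared with papillae of control cows on forage. The comparison takes in 10 of the 18 RNA-seq libraries of the series, chosen by their labels as the libraries with control treatment: 5 from the grain diet (grain_control) and 5 from the forage diet (forage_control). All cows were Holstein, rumen-cannulated and non-lactating. The grain diet held 65% concentrate and the forage diet was 100% forage. The series used 9 cows, 5 of them controls and 4 given a supplement named only as PHY, whose 8 libraries (4 from grain, 4 from forage) are set beside the control cows where stated. Every cow was biopsied on forage first and on grain later, so diet and time of biopsy cannot be told apart. No label ties a library to a cow, so libraries of the same cows on both diets were treated as independent, and the p-values measure the spread between these libraries.

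The lining of the rumen is a stratified squamous epithelium, with dividing basal cells, spinous and granular layers joined by desmosomes and tight junctions, and a cornified surface that faces the rumen content. Microbes ferment feed to short-chain fatty acids, which the papillae absorb through exchangers and monocarboxylate transporters and partly turn into ketone bodies in mitochondria. Grain is fermented faster than forage, and papillae of cattle on grain take up more acid.

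Grain libraries held fewer reads on average, with overlap between the diets. The grain_control libraries held 5433497, 23949058, 18096203, 9944586 and 20825008 reads, against 18507152, 15808999, 21165222, 31174477 and 33935756 reads in the forage_control libraries. The mean was 15649670 ± 7722818 reads on grain and 24118321 ± 7990967 reads on forage (SD, n = 5 each), a ratio of means of 0.649 (exact permutation p = 0.135, two-sided, smallest possible 0.00794). Reads on olfactory receptor genes, a family that most tissues do not express, ran the other way. The 144 olfactory receptor genes together stood at 168.6, 42.7, 47.0, 125.4 and 32.9 CPM, the counts scaled to the total reads of a library, in grain_control, against 28.5, 65.0, 48.7, 18.2 and 16.3 CPM in forage_control. The ratio of means was 2.36 (exact permutation p = 0.103, two-sided). The 2 highest values belong to grain_control 1 and grain_control 4, the 2 libraries with the fewest reads, and without them the ratio was 1.16 (exact permutation p = 0.464, smallest possible 0.0357). Among the 144 genes, 71 had enough reads to be tested, with a median log2 fold change of 0.76.

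**Figure D1:**
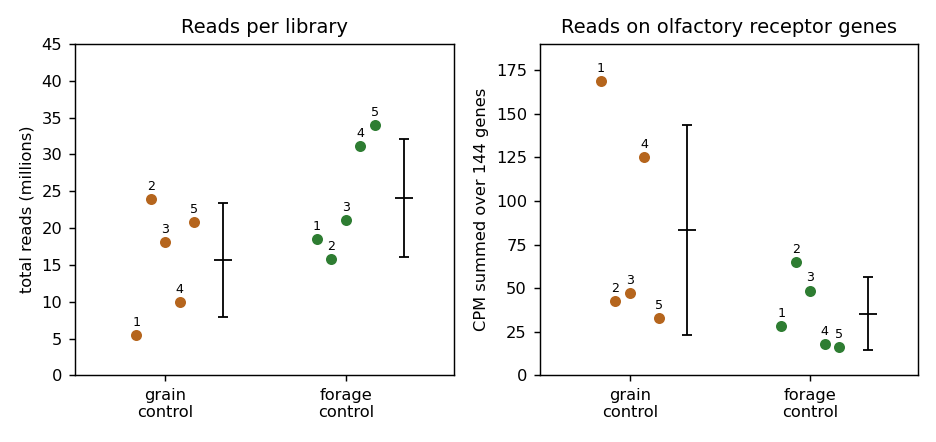
Total reads (left) and CPM summed over 144 olfactory receptor genes (right) in each grain_control and forage_control library, with points numbered by replicate and bars giving mean ± SD of 5 libraries. Libraries 1 and 4 of grain_control have the fewest reads, 5433497 and 9944586, and the most olfactory receptor CPM, 168.6 and 125.4.

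No gene passed the test between the diets in control cows. Of 22202 genes tested with edgeR's quasi-likelihood test, 0 (0%) had a Benjamini-Hochberg adjusted p under 0.05, and the smallest adjusted p was 0.432, which is also the adjusted p of every gene described below at an unadjusted p under 0.05. At an unadjusted p under 0.05, 2518 genes (11.3%) stood out, 1426 (6.42%) higher on grain and 1092 (4.92%) lower on grain. With the summed olfactory receptor CPM as a covariate the count was 976 (707 higher and 269 lower), and without grain_control 1 and 4 it was 421 of 22012 genes (243 higher and 178 lower), again with no gene called. DESeq2 and limma voom fitted to the same 18 libraries also called 0 genes, with 3791 and 4620 at an unadjusted p under 0.05. DESeq2 fitted to the 10 control libraries alone, a fit added after the data were seen, called 14 genes, all lower on grain, among them ALAS1, SRSF11 and the mitochondrially encoded COX1, COX3, CYTB and ND5. Without DESeq2's independent filtering that fit called only CYP1A1 (DESeq2 unadjusted p = 8.64e-09). The filtering leaves genes under a mean count out of the adjustment. It left out CYP1A1, which was therefore not among the 14, although their smallest DESeq2 unadjusted p was 1.71e-05. Single libraries weighed on the edgeR count at an unadjusted p under 0.05. It was 799 without grain_control 1, 1436 without grain_control 4, 1439 without forage_control 4 and 1293 without forage_control 5. It was 4666 without grain_control 5, 4182 without forage_control 2 and 3956 without forage_control 3, and no gene was called in any of these fits.

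The direction of the differences followed the level of the gene. The 4625 genes under 0 log2 CPM on average over the 18 libraries had a median log2 fold change (grain over forage) of 0.93, with 360 higher and 0 lower at an unadjusted p under 0.05. The 9032 genes between 0 and 3 log2 CPM had a median of 0.55, with 958 (10.6%) higher and 68 lower. The 7233 genes between 3 and 6 had a median of −0.23, with 92 higher and 833 (11.5%) lower, and the 1312 genes over 6 had a median of −0.41, with 16 higher and 191 (14.6%) lower. Over all tested genes 12668 (57.1%) lay above 0 and the median was 0.14, and it was 0.00136 without grain_control 1 and 4. Whether depth or the reads behind the olfactory receptor signal take part in this pattern was not tested. Each gene group below is given with its median also in a fit that holds the olfactory receptor level as a covariate and in one that leaves out those 2 libraries.

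**Figure D2:**
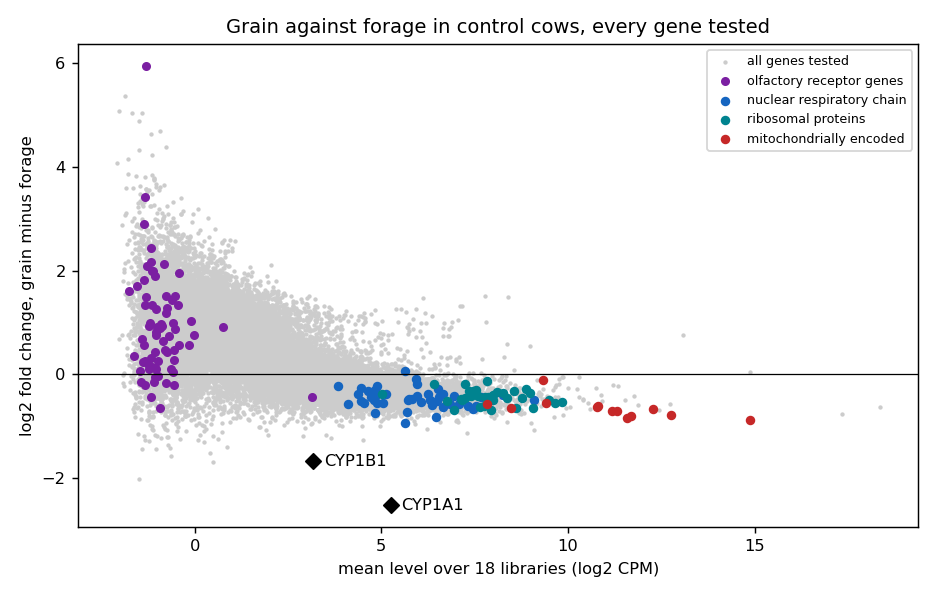
Log2 fold change, grain over forage in control cows, against mean level in log2 CPM for every gene tested, with olfactory receptor genes, respiratory chain genes, ribosomal protein genes and mitochondrially encoded genes in colour. Low genes lie mostly above 0 and high genes mostly below 0, and CYP1A1 at −2.52 and CYP1B1 at −1.67 lie under the cloud of genes at their level.

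The lowest log2 fold change of all tested genes was that of CYP1A1, an enzyme that oxidises foreign compounds. CYP1A1 and CYP1B1 are cytochromes induced through the aryl hydrocarbon receptor, a sensor of plant-derived and other aromatic compounds. CYP1A1 stood at 11.6, 23.7, 8.88, 6.52 and 16.4 CPM in grain_control, against 24.1, 81.9, 44.4, 157 and 78.8 CPM in forage_control. Every grain library lay below every forage library, although grain_control 2 and forage_control 1 nearly touched. The means were 13.4 ± 6.80 CPM on grain and 77.3 ± 50.8 CPM on forage (SD, n = 5 each), and the fitted log2 fold change was −2.52 ± 0.58 (SE, edgeR unadjusted p = 0.000398, adjusted p = 0.432). In bulk tissue such as this, fewer cells that express a gene and less RNA per cell cannot be told apart.

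CYP1B1 stood at 3.99, 5.68, 2.46, 3.74 and 6.03 CPM in grain_control, against 5.88, 11.3, 9.80, 23.9 and 18.8 CPM in forage_control. The groups overlapped only through grain_control 5 and forage_control 1. CYP1B1 had the smallest p of the named genes, with a log2 fold change of −1.67 ± 0.34 (edgeR unadjusted p = 4.97e-05, adjusted p = 0.432). Both genes stayed low on grain with the olfactory receptor covariate, at −1.96 for CYP1A1 and −1.56 for CYP1B1, and without grain_control 1 and 4, at −2.24 and −1.56. Leaving out any single library kept CYP1A1 between −2.79 and −2.09 and CYP1B1 between −1.86 and −1.38. The receptor gene AHR did not show the same difference, with means of 22.1 ± 6.44 CPM on grain and 25.2 ± 5.73 CPM on forage and a log2 fold change of −0.19 ± 0.24, which turned to 0.22 with the covariate. Of the 15 tested genes of the aryl hydrocarbon receptor and foreign-compound list, 2 (CYP1A1 and CYP1B1) were lower and 1 higher at an unadjusted p under 0.05, and the list's median was −0.17, −0.08 with the covariate and −0.15 without the 2 libraries. The higher one, ALDH3A1, an aldehyde dehydrogenase, averaged 1.56 CPM on grain and 0.369 CPM on forage, and was picked out after its values were seen. Of all genes at 3 to 6 log2 CPM, the level of this list, 11.5% were lower and 1.27% higher at that threshold.

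Other genes with the smallest p among those lower on grain were PNPLA2, CRTC3, ZNF575, TRAF2, FBP2, ALAS1 and PPP1R26. With CYP1A1 and CYP1B1 these 9 spanned log2 fold changes of −2.52 to −0.75, and 6 of the 9 did not overlap between the diets. All 9 kept an unadjusted p under 0.05 with the olfactory receptor covariate, and all 9 kept it without grain_control 1 and 4. PNPLA2, a lipase that starts the breakdown of stored triglyceride, stood at 7.13, 10.9, 10.4, 13.6 and 14.8 CPM in grain_control, against 19.2, 17, 20.5, 27 and 22.7 CPM in forage_control. The lowest forage library lay above the highest grain library, and the log2 fold change was −0.90 ± 0.22 (edgeR unadjusted p = 0.000377, adjusted p = 0.432).

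ALAS1, the enzyme that starts haem synthesis, stood at 39, 60.5, 69.7, 79.8 and 77.9 CPM in grain_control, against 167, 96.5, 114, 134 and 109 CPM in forage_control. Its groups did not overlap either, and ALAS1 was at −0.92 ± 0.26 on the log2 scale (edgeR adjusted p = 0.432). CRTC3, a coactivator of cAMP-responsive transcription, averaged 11.5 ± 2.13 CPM on grain and 19.6 ± 2.66 CPM on forage, with no overlap. FBP2, a fructose bisphosphatase of gluconeogenesis, averaged 12.3 ± 1.80 CPM on grain and 21.7 ± 6.50 CPM on forage, again with no overlap. TRAF2, an adaptor of tumour necrosis factor receptors, averaged 9.06 ± 2.64 CPM on grain and 15.3 ± 2.41 CPM on forage, and its groups overlapped.

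Counted over all genes, 191 (0.86%) had every grain library below every forage library and 109 (0.491%) had every grain library above every forage library, 300 (1.35%) in all. Of the 191, 137 lay between 3 and 6 log2 CPM and 36 above 6. Of the 109, 64 lay under 0 log2 CPM and 42 between 0 and 3. With DESeq2's size factors in place of TMM the counts were 235 below and 118 above, of the same 22202 genes. With every library thinned to the same total they were 149 below and 82 above, of only 15429 genes tested.

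The widest gaps below forage, among genes averaging at least 5 CPM in the higher diet, were in CDHR4, STRN4, SRSF11, KLHL42 and BRD3. CDHR4, a cadherin-related membrane protein, stood at 19.8, 27.7, 22.3, 22.9 and 30.1 CPM in grain_control, against 38.8, 43.9, 40.8, 42.7 and 41.7 CPM in forage_control. Its forage libraries were close together (SD 1.93 CPM, n = 5), and the log2 fold change was −0.76 ± 0.22. SRSF11, a splicing factor, stood at 103, 195, 234, 159.7 and 216 CPM in grain_control, against 317, 293, 301, 377 and 302 CPM in forage_control, with a log2 fold change of −0.81 ± 0.30. BRD3, a reader of acetylated histones, averaged 29.2 ± 9.11 CPM on grain and 48.0 ± 2.41 CPM on forage, and STRN4, a scaffold of phosphatase complexes, 31.2 ± 5.16 CPM on grain and 48.0 ± 4.07 CPM on forage. For each of these the edgeR adjusted p was 0.432.

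The genes of smallest p among those higher on grain were MYO1A, F13A1, CPQ, KIF26B, RUSC2, ABI2, NCAN, ANKRD35, FLT3 and U1, a small nuclear RNA for which several genes share a symbol and may share reads. Their log2 fold changes ran from 0.85 to 1.59. Of the 10, 9 kept an unadjusted p under 0.05 with the olfactory receptor covariate, 5 kept it without grain_control 1 and 4, and only F13A1 did not overlap. F13A1, the catalytic subunit of the clotting factor that cross-links fibrin and a product of tissue macrophages, stood at 7.62, 6.29, 5.16, 6.38 and 4.53 CPM in grain_control, against 1.89, 2.39, 3.4, 2.53 and 2.94 CPM in forage_control. The log2 fold change was 1.18 ± 0.29 (edgeR unadjusted p = 0.000491, adjusted p = 0.432), 1.0 with the covariate and 1.01 without the 2 libraries. MYO1A, a myosin of microvilli, stood at 9.31, 6.46, 4.87, 9.16 and 3.46 CPM in grain_control, against 2.79, 3.71, 2.67, 2.33 and 2.78 CPM in forage_control. Its 2 highest libraries were grain_control 1 and 4, and its log2 fold change of 1.21 ± 0.30 was 0.79 without them.

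FLT3, a receptor of dendritic cells and blood progenitors, averaged 5.33 ± 3.55 CPM on grain and 1.80 ± 1.33 CPM on forage, and its log2 fold change of 1.56 ± 0.47 was 0.79 with the covariate and 0.85 without the 2 libraries. The widest gaps above forage were in F13A1, SLC25A30, ABTB2, SERPINI1 and ZNF516. ABTB2 stood at 10, 10.2, 8.48, 9.02 and 9.77 CPM in grain_control, against 7.39, 5.02, 6.0, 6.17 and 6.52 CPM in forage_control. Its log2 fold change was 0.61 ± 0.21 (edgeR unadjusted p = 0.00855, adjusted p = 0.432), and it was 0.61 without the 2 libraries too. SERPINI1, a secreted inhibitor of serine proteases, averaged 5.73 ± 1.30 CPM on grain and 2.98 ± 0.797 CPM on forage, with a log2 fold change of 0.93 ± 0.31.

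**Figure D3:**
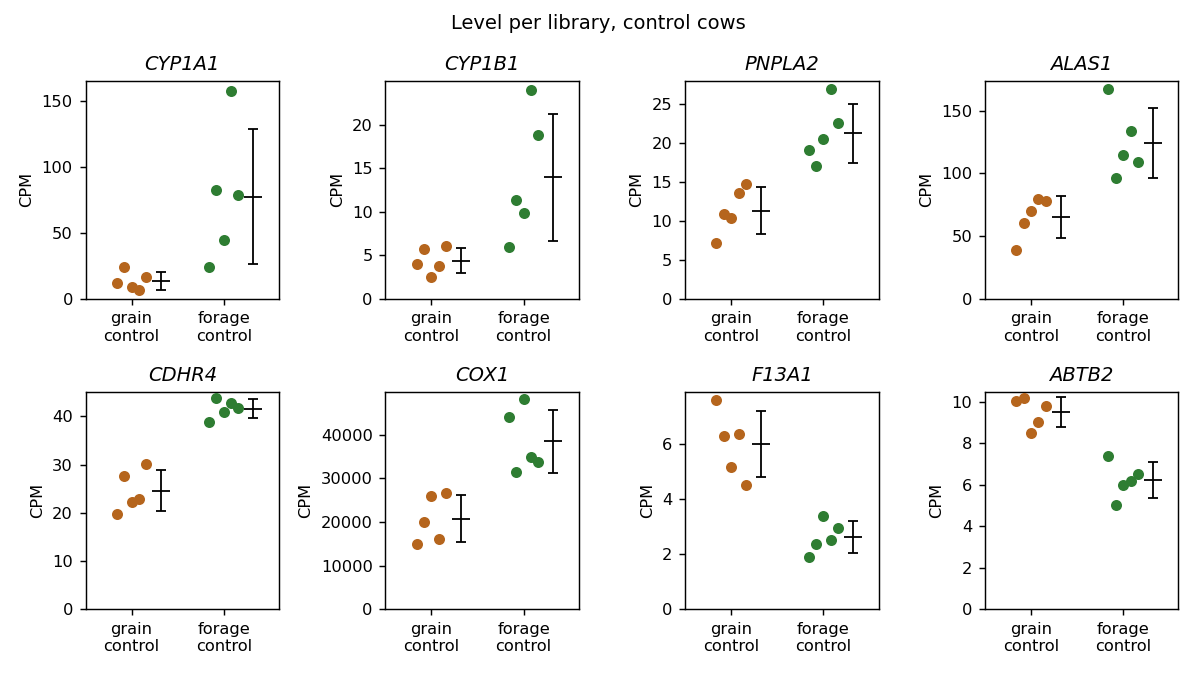
CPM of 8 genes in each grain_control library (left of each panel) and forage_control library (right), with bars giving mean ± SD of 5 libraries. CYP1A1, PNPLA2, ALAS1, CDHR4 and COX1 lie lower in every grain library, F13A1 and ABTB2 lie higher in every grain library, and CYP1B1 overlaps between the diets.

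Genes of the mitochondrial genome, which encodes the core subunits of the respiratory chain, had a log2 fold change below 0 in every case, and 6 of 13 did not overlap, beside 36 of the 1312 genes over 6 log2 CPM (2.74%). Summed over the 13 genes the level was 29427, 41194, 52847, 33655 and 53472 CPM in grain_control, against 82158, 61307, 89501, 70369 and 64743 CPM in forage_control. The sums did not overlap. The median log2 fold change was −0.67, with COX1 at −0.89 ± 0.38, COX3 at −0.84 ± 0.36 and CYTB at −0.79 ± 0.36, and 6 of 13 had an unadjusted p under 0.05. Of all genes over 6 log2 CPM, 14.6% were lower at that threshold. COX1, the catalytic subunit of cytochrome oxidase, stood at 14951, 20075, 26031, 16131 and 26633 CPM in grain_control, against 44111, 31520, 48206, 35000 and 33724 CPM in forage_control. The 13 genes lie on a single small genome and come from shared precursor RNAs, so they are not independent. Their median was −0.29 with the olfactory receptor covariate, −0.45 without grain_control 1 and 4, and −0.57 with libraries thinned to the same total. At an unadjusted p under 0.05 none of the 13 was left in the first and second of these fits and 8 in the third.

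Respiratory chain genes of the nucleus showed the same sign with more overlap. Of 44 tested, 43 had a log2 fold change below 0, 6 had an unadjusted p under 0.05 (all lower on grain), and 0 were free of overlap. At that threshold 11.5% of all genes at 3 to 6 log2 CPM and 14.6% of those above 6 were lower. The median of the 44 was −0.48, against −0.23 for all genes at 3 to 6 log2 CPM and −0.41 for all genes above 6. COX8B, a subunit of cytochrome oxidase, stood at 20.9, 29.5, 45.8, 26.1 and 69.3 CPM in grain_control, against 49.2, 53.3, 42.8, 114 and 108 CPM in forage_control, with a log2 fold change of −0.94 ± 0.34. Its values overlapped through grain_control 3 and 5. NDUFS7, a subunit of the first complex, was at −0.76 ± 0.27 and the ATP synthase subunit ATP5F1D at −0.82 ± 0.31. The median of the nuclear list was 0.02 with the covariate and −0.22 without the 2 libraries, with 0 lower at an unadjusted p under 0.05 in either, and limma voom had 27 of the 44 lower at that threshold.

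Ribosomal protein genes behaved alike, with 35 of 35 below 0, a median of −0.44 and 1 at an unadjusted p under 0.05 (RPL19, −0.69 ± 0.33), and medians of 0.04 with the covariate and −0.11 without the 2 libraries. Of all genes over 6 log2 CPM, the level of this list, 14.6% were lower at that threshold. By limma voom 25 of the 35 were lower at an unadjusted p under 0.05. Of 15 genes commonly used as references, ACTB and GAPDH among them, 15 lay below 0, with a median of −0.28 that was 0.22 with the covariate and −0.08 without the 2 libraries. The median of all genes over 6 log2 CPM, the level of both the ribosomal and the reference list, was −0.41 with all libraries. The signs of these high-level groups differed between fits.

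The epithelial identity of the samples was clear in both diets, with 13 rumen epithelium markers found, none at 0 in a whole group and a summed level of 8783 to 25485 CPM in grain_control and 14367 to 34427 CPM in forage_control. KRT5, the keratin of basal cells, averaged 2780 ± 909 CPM on grain and 3740 ± 547 CPM on forage (log2 fold change −0.43 ± 0.36, and 0.10 with the covariate). Among 14 basal layer genes, 14 lay below 0 and 3 had an unadjusted p under 0.05: ITGB4 and COL17A1, which anchor basal cells through hemidesmosomes, and LAMB3, a chain of their laminin. Of all genes over 6 log2 CPM, the level of this list, 14.6% were lower at that threshold. The list's median of −0.44 was −0.04 with the covariate and −0.21 without the 2 libraries, with 0 lower at that threshold in either fit. All genes over 6 log2 CPM had a median of −0.41 with all libraries. ITGB4 stood at 182, 273, 302, 244 and 397 CPM in grain_control, against 486, 425, 360.2, 474 and 519.8 CPM in forage_control. Its groups met only at grain_control 5, and the log2 fold change was −0.70 ± 0.28.

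Genes of the upper layers split in both directions, with 3 of 36 higher and 4 lower at an unadjusted p under 0.05, and a median of −0.17, which was 0.02 with the covariate and −0.12 without the 2 libraries. Of all genes at 3 to 6 log2 CPM, the level of this list, 11.5% were lower and 1.27% higher at that threshold. ZNF750, a regulator of terminal differentiation, stood at 12, 31.9, 22.3, 18.5 and 27.8 CPM in grain_control, against 41.4, 29.6, 23.9, 75.4 and 54.2 CPM in forage_control (log2 fold change −0.99 ± 0.32). LYPD3, a surface protein of stratified epithelium, averaged 94.9 ± 45.5 CPM on grain and 180.0 ± 72.7 CPM on forage (−0.92 ± 0.32). CRNN, a cornified envelope protein, had the opposite sign at 1.22 ± 0.46, carried by grain_control 1 at 15.1 CPM, and was 0.50 without grain_control 1 and 4. KRT10, a keratin of cornifying skin, averaged 3.60 ± 1.06 CPM on grain and 3.47 ± 0.944 CPM on forage, with a log2 fold change of 0.04 ± 0.34.

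Of 27 junction genes, 6 were lower and 0 higher at an unadjusted p under 0.05, beside 11.5% lower among all genes at 3 to 6 log2 CPM, the level of the list. They were the tight junction scaffolds TJP3 (−0.62 ± 0.21) and CGN (−0.60 ± 0.24), the adhesion molecules NECTIN4 (−0.60 ± 0.24), NECTIN2 (−0.47 ± 0.19) and F11R, and the polarity protein PARD6B. TJP3 stood at 25, 31.3, 50.4, 30.1 and 33.5 CPM in grain_control, against 55.6, 35, 59.5, 61.4 and 50.2 CPM in forage_control, so grain_control 3 lay above forage_control 2 and 5. Of the claudins, CLDN1 was at −0.18 ± 0.35 and CLDN4 at −0.37 ± 0.31, and limma voom gave CLDN4 −0.85 ± 0.28 (unadjusted p = 0.00483). The junction list's median was −0.36. It was 0.02 with the covariate, where 1 gene was lower at an unadjusted p under 0.05, and −0.10 without the 2 libraries, where 0 were. Of 30 cell division genes 1 (MCM5, a helicase subunit of DNA replication, at −0.59 ± 0.27) had an unadjusted p under 0.05, and MKI67 averaged 227 ± 72.8 CPM on grain and 270.0 ± 100.2 CPM on forage (−0.25 ± 0.31). The cell division median was −0.14, 0.12 with the covariate and −0.0044 without the 2 libraries.

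Ketone and butyrate genes lay near the background of their level, with a median of −0.35 over 20 genes, against −0.23 for all genes at 3 to 6 log2 CPM and −0.41 for all genes above 6. ACADS, the dehydrogenase of butyryl-CoA, stood at 166, 443, 226, 237 and 490.4 CPM in grain_control, against 381, 450.2, 318, 668 and 648 CPM in forage_control. Libraries 1, 3 and 4 of grain_control lay below all forage libraries and the other two lay among them, and the log2 fold change was −0.66 ± 0.33. BDH1, which makes 3-hydroxybutyrate, averaged 234 ± 119 CPM on grain and 321 ± 74.6 CPM on forage (−0.45 ± 0.32). Of the 20 genes 2 were lower at an unadjusted p under 0.05 and 0 higher, among them HADHA, a subunit of the trifunctional enzyme of fatty acid oxidation (−0.54 ± 0.25), and the median was −0.01 with the covariate and −0.12 without the 2 libraries. At that threshold 11.5% of all genes at 3 to 6 log2 CPM and 14.6% of those above 6 were lower.

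Cholesterol synthesis was described by 23 genes, 3 of them lower at an unadjusted p under 0.05. They were the isomerase IDI1 (−0.68 ± 0.29), the sterol sensor SCAP (−0.45 ± 0.20) and SREBF2 (−0.54 ± 0.25), the transcription factor of the pathway. HMGCS1, its first committed step, averaged 64.5 ± 28.5 CPM on grain and 78.0 ± 50.5 CPM on forage (−0.27 ± 0.37). Of 25 fatty acid oxidation and PPAR genes 5 were lower at an unadjusted p under 0.05 and 0 higher, and 1 was lower both with the covariate and without the 2 libraries. Among all genes at 3 to 6 log2 CPM, the level of both lists, 11.5% were lower. PPARD, a fatty acid receptor, stood at 38.4, 59.4, 63.9, 57.5 and 116 CPM in grain_control, against 124, 86.5, 87.9, 132 and 136 CPM in forage_control, with grain_control 5 inside the forage range (−0.75 ± 0.27). PLIN2, a lipid droplet coat protein, was at −0.78 ± 0.29, UCP2, a mitochondrial carrier, at −0.68 ± 0.22, and CPT1A, the entry step of fatty acids into mitochondria, at −0.56 ± 0.25. The medians of the cholesterol and the fatty acid lists were −0.26 and −0.31. With the covariate they were −0.05 and −0.07, and without the 2 libraries −0.10 and −0.20.

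Transporters of acid and short-chain fatty acids showed both directions. Of 35 tested, 2 were higher and 4 lower at an unadjusted p under 0.05, with a list median of 0.21 that was 0.05 with the covariate and 0.06 without the 2 libraries. Of all genes at 0 to 3 log2 CPM, the level of this list, 10.6% were higher and 0.753% lower at that threshold. SLC4A9, an anion exchanger, stood at 27.6, 32, 39.5, 32.7 and 45.6 CPM in grain_control, against 58.2, 48.2, 50.2, 65.1 and 80.3 CPM in forage_control. Its groups did not overlap (log2 fold change −0.77 ± 0.23, edgeR unadjusted p = 0.00239, adjusted p = 0.432), and it was −0.42 with the covariate and −0.63 without the 2 libraries. SLC9A2, a sodium-proton exchanger, averaged 45.1 ± 17.0 CPM on grain and 83.9 ± 32.3 CPM on forage (−0.89 ± 0.28). CA12, a membrane carbonic anhydrase, averaged 328 ± 103 CPM on grain and 524 ± 72.5 CPM on forage (−0.68 ± 0.31).

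The diets were not separated by the transporters SLC16A1 and SLC9A3 or by the enzyme CA1. SLC16A1, a monocarboxylate transporter, averaged 798 ± 230.1 CPM on grain and 920.1 ± 222 CPM on forage (−0.20 ± 0.28). SLC9A3, another sodium-proton exchanger, stood at 14, 34.7, 26, 12.8 and 22.7 CPM in grain_control, against 9.13, 19.7, 14.3, 94.4 and 23 CPM in forage_control. Its log2 fold change of −0.54 ± 0.49 rested on forage_control 4 and was 0.42 without that library. CA1, a cytosolic carbonic anhydrase, stood at 62.5, 7.69, 123, 46.8 and 8.09 CPM in grain_control, against 115, 6.93, 127, 81.4 and 10.4 CPM in forage_control. It ranged more widely between libraries of a diet than between the diet means (−0.46 ± 0.84). In both diets libraries 2 and 5 in order of deposit were the lowest and library 3 the highest. These numbers are no record of the cow, and the SE treats the libraries as independent.

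Of 28 sodium, potassium and urea transport genes, 3 were higher and 3 lower at an unadjusted p under 0.05, with a median of 0.10, 0.15 with the covariate and 0.09 without the 2 libraries. The lower ones were KCNK5, a potassium leak channel (−0.70 ± 0.23), CNNM4, a magnesium transporter (−0.58 ± 0.21), and the cation channel TRPV4 (−0.50 ± 0.22). CNNM4 stood at 11.2, 29.5, 23.5, 19.8 and 25.7 CPM in grain_control, against 30.6, 30.3, 32.9, 38.4 and 32.6 CPM in forage_control, with no overlap. Higher on grain were KCNMA1, a calcium-gated potassium channel (1.27 ± 0.40), KCNJ5, an inward rectifier (1.51 ± 0.63), and SCNN1A, a subunit of the epithelial sodium channel. KCNMA1 was highest in grain_control 1 and 4, at 14.6 and 10.2 CPM, and its log2 fold change was 0.56 with the covariate and 0.65 without those libraries. Among all genes at 0 to 3 log2 CPM, the list's level, 10.6% were higher and 0.753% lower at an unadjusted p under 0.05.

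Of all genes at 0 to 3 log2 CPM, the level of the inflammation list, 10.6% were higher at an unadjusted p under 0.05. Inflammation genes had a median log2 fold change of 0.25 over 39 tested, against 0.55 for all genes at that level. At an unadjusted p under 0.05, 4 were higher on grain (the chemokine CXCL5, the cytokines IL1A and TNF, and the nitric oxide synthase NOS2) and 1 was lower, RELA, a subunit of NF-kappa-B (23.6 ± 9.07 CPM on grain and 36.9 ± 9.63 CPM on forage, −0.64 ± 0.25). CXCL5 and IL1A were the 2 whose groups did not overlap, with means of 3.35 and 3.15 CPM on grain and 1.11 and 1.43 CPM on forage. They fall under the level set for named genes and were picked out after their values were seen. Over all tested genes, 0.491% had every grain library above every forage library. IL1B, a central cytokine of inflammation, stood at 5.2, 0.905, 2.06, 3.23 and 3.32 CPM in grain_control, against 2.04, 1.91, 1.87, 0.450 and 1.29 CPM in forage_control, with grain_control 2 below 4 forage libraries (0.95 ± 0.47). CXCL8, a neutrophil chemokine, was at 1.16 ± 0.63, and TLR4, the receptor of bacterial lipopolysaccharide, at 0.05 ± 0.37. The list's median was 0.20 with the covariate and 0.11 without the 2 libraries.

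Mucosal defence genes had a median of 0.68 over 25 tested, with 4 higher and 0 lower at an unadjusted p under 0.05. All genes at 0 to 3 log2 CPM, the level of the list, had a median of 0.55 with 10.6% higher. The list's median was 0.28 with the covariate and 0.16 without the 2 libraries. The 4, CHI3L1, LCN2, SLPI and MUC15, averaged between 0.469 and 3.67 CPM on grain and between 0.0956 and 1.44 CPM on forage. The calgranulin S100A12, a neutrophil and keratinocyte protein, averaged 2482 ± 1198 CPM on grain and 2891 ± 1192 CPM on forage (−0.22 ± 0.37).

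Markers of cells other than epithelium were compared as lists. T and NK cell markers had a median of 0.50 over 23 genes, with 3 higher at an unadjusted p under 0.05 and a summed level of 46.0 to 121 CPM in grain_control and 45.4 to 71.1 CPM in forage_control. Their median was −0.13 with the covariate and −0.13 without grain_control 1 and 4. All genes at 0 to 3 log2 CPM, the level of the T and NK, B and myeloid lists, had a median of 0.55 with 10.6% higher. B and plasma cell markers had a median of 0.93 over 15 genes (0.07 with the covariate and 0.23 without the 2 libraries) and summed to 15.6 to 69.5 CPM in grain_control and 8.59 to 32.9 CPM in forage_control. Myeloid markers had a median of 0.61 over 19 genes (0.31 with the covariate and 0.24 without the 2 libraries) and summed to 67.1 to 113 CPM in grain_control and 55.5 to 73.1 CPM in forage_control.

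Red blood cell genes, at a median of 1.49 over 8 genes (0.50 with the covariate and 0.60 without the 2 libraries), summed to 12.8 to 66.0 CPM in grain_control and 3.78 to 34.5 CPM in forage_control, and grain_control 1 held the highest sum of each of the T and NK, B, myeloid and red blood cell lists. Stromal markers had a median of 0.20 over 16 genes, with 0 at an unadjusted p under 0.05, and summed to 1498 to 2189 CPM in grain_control and 751 to 3621 CPM in forage_control, where forage_control 5 held the highest value. Endothelial and smooth muscle markers had medians of −0.02 and 0.22. With the covariate the stromal, endothelial and smooth muscle medians were 0.90, 0.21 and 0.56, and without the 2 libraries 0.30, 0.10 and 0.21. No marker of these lists was at 0 in all libraries of a diet. The part of other cell types in the differences given above was not tested.

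Of 17 clock genes, 4 were lower and 0 higher at an unadjusted p under 0.05 and 15 lay below 0, beside 11.5% lower and a median of −0.23 among all genes at 3 to 6 log2 CPM, the level of the list. These were the repressors CRY2 (−0.68 ± 0.21), BHLHE40 (−0.91 ± 0.29) and NR1D1 (−0.82 ± 0.30) and the activator DBP (−0.86 ± 0.27). CRY2 stood at 8.10, 9.22, 14.3, 12.5 and 11 CPM in grain_control, against 18.6, 22.6, 13.9, 16.2 and 17.4 CPM in forage_control, with only grain_control 3 reaching the forage range. The list's median of −0.30 was −0.18 with the covariate and −0.16 without the 2 libraries, where 2 and 3 genes kept an unadjusted p under 0.05. The time of day of each biopsy is not used here.

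Among 30 growth factor genes, 2 were higher and 3 lower at an unadjusted p under 0.05, with a median of −0.08 that was −0.0035 with the covariate and −0.07 without the 2 libraries. Of all genes at 3 to 6 log2 CPM, the level of this list, 11.5% were lower and 1.27% higher at that threshold. HBEGF, a ligand of the epidermal growth factor receptor, stood at 7.13, 9.26, 9.74, 7.77 and 20.5 CPM in grain_control, against 39.2, 14.8, 19.8, 11.6 and 23.5 CPM in forage_control. All grain libraries but grain_control 5 lay below every forage library (−0.99 ± 0.31). The receptor ERBB2 was at −0.58 ± 0.23 and the insulin pathway adaptor IRS2 at −0.67 ± 0.27. TGFB3, a transforming growth factor, was higher without overlap, at 4.32 CPM on grain and 1.51 CPM on forage (1.52 ± 0.42), and was picked out after its values were seen. IGFBP5, a binding protein of insulin-like growth factors, averaged 309 ± 163 CPM on grain and 450 ± 295 CPM on forage (−0.54 ± 0.41). Of 28 antioxidant and stress genes 2 were lower at an unadjusted p under 0.05, the small heat shock protein HSPB1 (−0.79 ± 0.34) and the glutathione peroxidase GPX1 (−0.71 ± 0.34), and the list's median of −0.33 was 0.15 with the covariate and −0.09 without the 2 libraries. Of all genes over 6 log2 CPM, the level of this list, 14.6% were lower at that threshold.

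**Figure D4:**
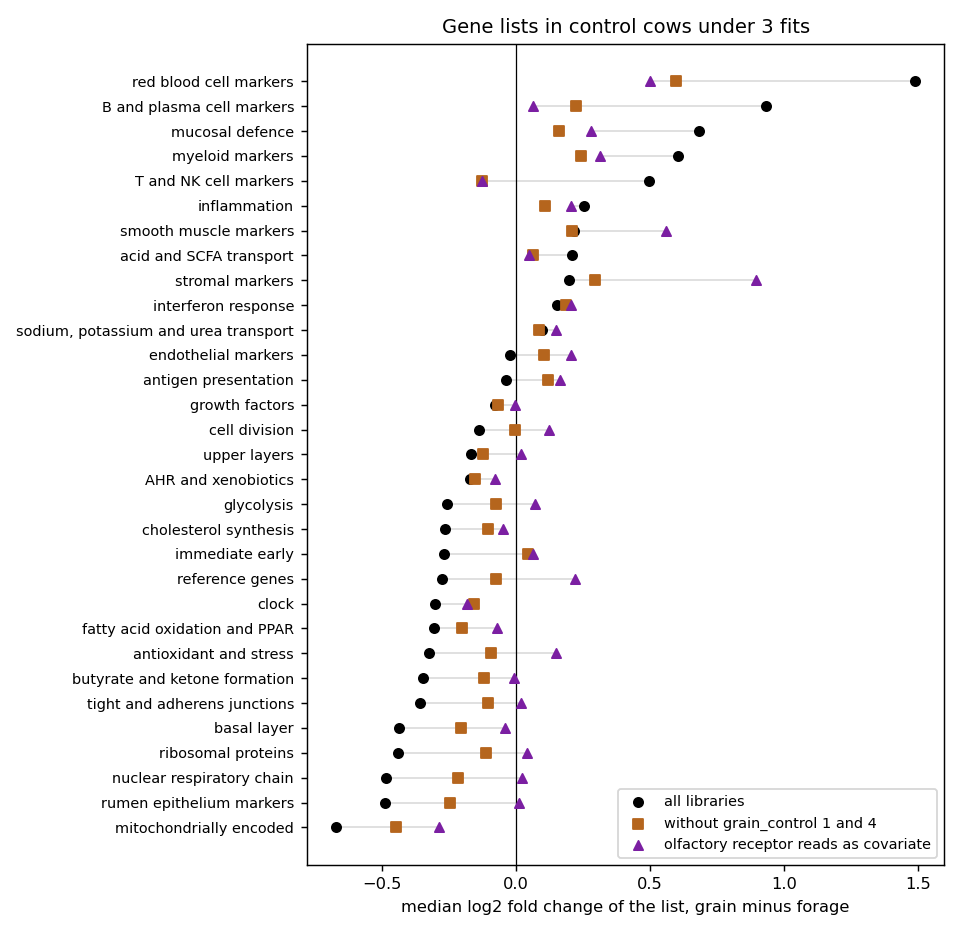
Median log2 fold change, grain over forage in control cows, of each of 31 gene lists with all libraries (circles), without grain_control 1 and 4 (squares) and with the olfactory receptor level as covariate (triangles). The mitochondrially encoded genes keep the lowest median in each fit, from −0.67 to −0.29, while most other medians move toward 0 in at least 1 of the other fits, and the stromal and smooth muscle medians are higher with the covariate.

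The PHY cows went through the same diets, share no library with the control cows and were fitted in the same model, so their values can be read beside these. In PHY cows edgeR called 0 of 22202 genes (0%, smallest adjusted p 0.0696), with 8820 (39.7%) at an unadjusted p under 0.05, 4958 (22.3%) higher and 3862 (17.4%) lower on grain. For the same comparison DESeq2 called 5225 of 26991 genes and limma voom 7924 of 22202. Total reads averaged 10625621 ± 4880713 in grain_PHY and 26477031 ± 7931360 in forage_PHY (SD, n = 4 each), and olfactory receptor genes 135.8 ± 140.7 CPM in grain_PHY and 24.2 ± 5.42 CPM in forage_PHY. Of the 2518 genes at an unadjusted p under 0.05 in control cows, 2478 had the same sign in PHY cows, beside 19202 of all 22202 genes. Of the 300 genes without overlap in control cows, 288 had the same sign. The medians by level also ran the same way in PHY cows, from 1.83 for genes under 0 log2 CPM to −0.68 for genes above 6.

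The difference between the diet responses of control and PHY cows, tested as an interaction, gave 0 called genes (0%, smallest edgeR adjusted p 0.954), with 442 (1.99%) at an unadjusted p under 0.05, 171 (0.77%) above 0 and 271 (1.22%) below. CYP1A1 was at −2.52 ± 0.58 in control cows and −2.11 ± 0.64 in PHY cows, and CYP1B1 at −1.67 ± 0.34 and −0.70 ± 0.38, with an unadjusted interaction p of 0.0655 for CYP1B1. All 9 of the genes of smallest p named here that were lower on grain and all 10 that were higher had the same sign in PHY cows. The mitochondrially encoded genes had a median of −0.67 in control cows and −0.37 in PHY cows, and the nuclear respiratory genes −0.48 and −0.83. At an unadjusted p under 0.05, 0 of the 13 mitochondrially encoded genes and 39 of the 44 nuclear ones were lower in PHY cows. CLDN1, a tight junction claudin, was at −0.18 ± 0.35 in control cows and −1.57 ± 0.41 in PHY cows, with an unadjusted interaction p of 0.0168 that did not pass the adjustment. No diet response of any gene was thus shown to be particular to the control cows.

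**Figure D5:**
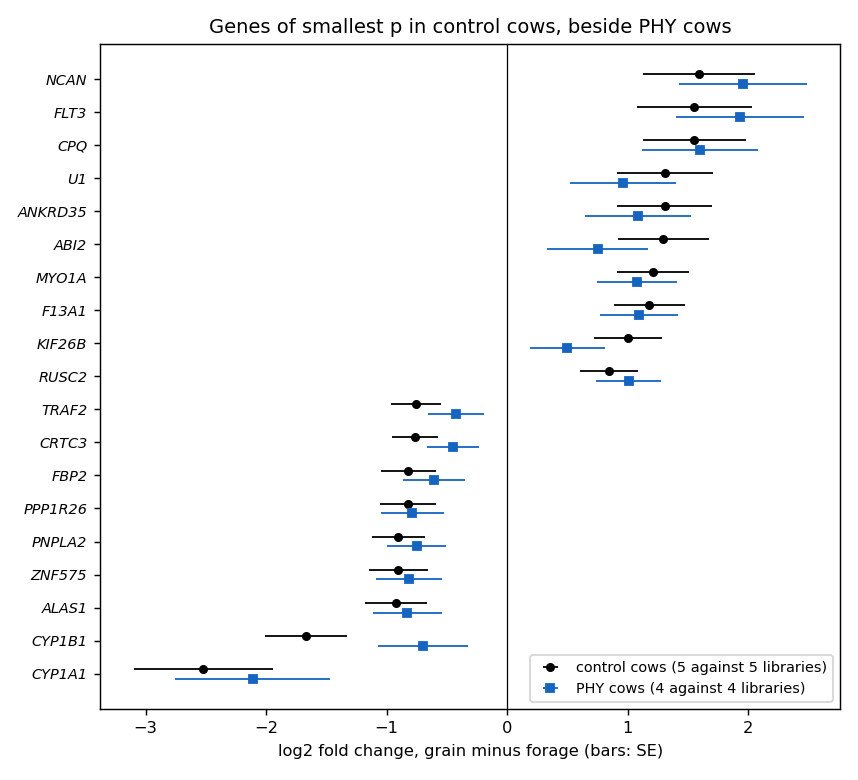
Log2 fold change, grain over forage, with SE bars, for the named genes of smallest p in control cows (circles) and for the same genes in PHY cows (squares). All of them lie on the same side of 0 in both, and CYP1B1 shows the widest gap between the arms, at −1.67 in control cows and −0.70 in PHY cows.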

How the data were processed

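RNA of rumen papillae was sequenced from libraries made with a stranded total RNA kit, per the labels' protocols. The deposited counts are whole numbers of reads for each of 27270 Ensembl genes, of which 279 had 0 reads throughout. Demultiplexing was done with bcl2fastq 2.20, DESeq2 was used, and the cattle build was bosTau9, all per the submitters' processing notes. How reads were aligned and counted, with which annotation and whether by strand, is not given in the sources used here, so overlapping, antisense and near-identical genes could share reads. A deposited table of DESeq2-normalized values was not used. Genes carry the names they have in the counts table, where 7506 have only an identifier.

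The main test was edgeR 4.0.16 (R 4.3.3), quasi-likelihood with robust dispersion, on genes that passed filterByExpr for the groups, scaled by TMM. Each of the 4 groups of diet and treatment had its own mean, and all 18 libraries shared 1 estimate of the spread (biological coefficient of variation 51.4%). Calls were made at an adjusted p (Benjamini-Hochberg, over 22202 genes) under 0.05. SE is the log2 fold change divided by the square root of F. CPM of single genes used effective library sizes, CPM of olfactory receptor genes used total reads, and list sums add the CPM of the members. Totals and olfactory receptor CPM were compared by exact permutation on the log2 scale. The test script was tested on simulated data. The labels name no batch, and the intervals cover only the spread between these libraries.

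The genes, the 31 gene lists and the tests were chosen with earlier results of these data known, so no list was given a set test. In each direction the rule for named genes took the called genes, then those of smallest p, up to 10 that have a symbol and average at least 5 CPM in 1 of the diets. It added up to 4 members of each list at that level, 25 preset genes, and the 5 widest gaps in each direction among genes whose groups did not overlap. Some of the genes it names are not printed. Alternatives were DESeq2's size factors, no filter, at least 1 CPM in 5 control libraries, only the 10 control libraries, the log2 olfactory receptor CPM as covariate, leaving out the 2 grain_control libraries with the fewest reads, thinning all libraries to the lowest total, DESeq2 1.42.0, limma 3.58.1 voom with quality weights, and leaving out each library in turn. For the olfactory receptor ratio, the reads outside the 2 most abundant genes also served as denominator.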

Additional observations from a re-analysis of the deposited data

Results flagged for a closer look

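Of 268 sets of 5 libraries examined (gene levels and list sums of a diet in control cows), 11 held a library whose gap to its nearest neighbour exceeded 0.71 of the set's range. Chance alone picks out about 1 in 20 such sets. FBP2 was 9.16 CPM in grain_control 4, against 12.5 to 13.6 CPM in the other grain libraries. CRNN was 15.1 CPM in grain_control 1, against 3.44 to 6.6 CPM in the others. HBEGF was 20.5 CPM in grain_control 5, against 7.13 to 9.74 CPM in the others. IL1A was 5.56 CPM in grain_control 1, against 2.2 to 3.0 CPM in the others, and PARD6B 1.81 CPM in grain_control 1, against 6.42 to 7.74 CPM. CGN was 70.3 CPM in forage_control 2, against 115.4 to 116.5 CPM in the other forage libraries. In forage_control 4, SLC9A3 was 94.4 CPM against 9.13 to 23.0 CPM, SLC25A30 was 2.45 CPM against 4.15 to 4.54 CPM, and SRSF11 was 377.3 CPM against 292.8 to 316.8 CPM in the other forage libraries. SLPI was 0.377 CPM in forage_control 1, against 0 to 0.0598 CPM in the other forage libraries. The stromal markers summed to 3621 CPM in forage_control 5, against 751 to 1568 CPM in the other forage libraries.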

How the results depend on the processing

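In control cows the count of called genes stayed at 0 under every alternative of the methods, with a smallest adjusted p of 0.172 to 0.890 when single libraries were left out. Added after the data were seen, DESeq2 on the 10 control libraries called 14 genes, and 1 gene (CYP1A1, −2.52 ± 0.44, adjusted p = 0.000232) without its independent filtering. CYP1A1 was not among the 14 because the filtering left it out of the adjustment. In PHY cows the count of 0 was 1755 without the 2 shallow grain_control libraries, 5225 by DESeq2 and 7924 by limma voom, and ran from 0 to 1677 when single control libraries were left out. The interaction count ran from 0 to 0. The ratio of total reads ran from 0.563 to 0.755 (exact p = 0.0873 to 0.27) and that of olfactory receptor CPM from 1.75 to 2.98 (exact p = 0.0714 to 0.206) when single libraries were left out, and they were 0.869 and 1.16 without the 2 shallow libraries. With the reads outside the 2 most abundant genes as denominator, the olfactory receptor ratio was 1.97 (exact p = 0.198). No paired analysis was made, because replicate numbers follow the order of deposit and no label ties a library to a cow. In control cows the 5 CA1 levels had the same order by these numbers on both diets, and so had the CA1 levels of PHY cows. This is a hint from the data and not from the design. Of 2594 values of 124 genes named here under 21 alternatives, 2555 kept their sign without a call, 7 were called, and 32, of 15 genes, turned their sign, where the cause was not tested. With the olfactory receptor covariate the log2 fold change turned to 0.39 for S100A12, 0.22 for AHR, 0.10 for KRT5, 0.48 for CLDN1, 0.15 for CLDN4, 0.13 for HMGCS1, 0.17 for SLC16A1, 0.15 for SLC9A3, 0.22 for SLC26A3, 0.10 for MKI67, 0.25 for GAPDH, 0.26 for ACTB and 0.019 for STAT2, which was 0.057 with libraries thinned to the same total. Without the 2 shallow libraries it was 0.16 for S100A12, 0.027 for AHR, −0.15 for KRT10, 0.15 for CLDN1, 0.0089 for SLC16A1 and 0.11 for SLC26A3. With single libraries left out KRT10 ran from −0.077 to 0.18, TLR4 from −0.12 to 0.26, HMGCS1 from −0.49 to 0.15, SLC9A3 from −0.78 to 0.42 and SLC26A3 from −0.80 to 0.23. Under voom KRT10 was −0.084 and SLC9A3 0.42. Of the list medians under these alternatives, 595 stayed within the spread of the libraries and 56 moved beyond it. At 5433497 to 33935756 reads per control library, genes under 0 log2 CPM rest on few reads.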

Other observations

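Gene groups not described above gave small medians in control cows. Of 21 interferon response genes, 2 (IFIT2 and OAS2, antiviral effectors) were higher and 0 lower at an edgeR unadjusted p under 0.05. Their list had a median log2 fold change of 0.15, which was 0.20 with the olfactory receptor covariate and 0.19 without grain_control 1 and 4. All genes at 0 to 3 log2 CPM, the level of the list, had a median of 0.55 with 10.6% higher. IFIT2 averaged 3.65 CPM on grain and 1.39 CPM on forage, and OAS2 2.60 CPM on grain and 1.15 CPM on forage, while STAT2, a signalling factor of the same pathway, was at −0.14 ± 0.17. Of 12 antigen presentation genes, 1 was higher, BOLA-DMB, a chaperone that loads peptides onto class II molecules (0.69 ± 0.33). It averaged 5.36 ± 0.950 CPM on grain and 3.30 ± 1.21 CPM on forage. The list's median was −0.04, 0.16 with the covariate and 0.12 without the 2 libraries. Among all genes at 3 to 6 log2 CPM, the list's level, 1.27% were higher at an unadjusted p under 0.05.

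Glycolysis genes had a median of −0.26 over 21 genes, against −0.23 for all genes at 3 to 6 log2 CPM, their level. The list's median was 0.07 with the olfactory receptor covariate and −0.08 without the 2 libraries. The only gene at an unadjusted p under 0.05 had the other sign: SLC2A3, a glucose transporter, averaged 6.04 ± 2.96 CPM on grain and 3.54 ± 0.973 CPM on forage (0.76 ± 0.31). Of 16 immediate early genes, 1 was lower, IER3, a stress-induced regulator of cell survival (−0.86 ± 0.31). IER3 averaged 36.4 ± 12.3 CPM on grain and 66.3 ± 24.8 CPM on forage. Among all genes at 3 to 6 log2 CPM, the list's level, 11.5% were lower at an unadjusted p under 0.05. The list's median of −0.27 was 0.06 with the olfactory receptor covariate and 0.05 without the 2 libraries. With single libraries left out it ran from −0.64 to 0.17. In PHY cows the immediate early median was 0.65. By edgeR 0 of the 16 genes had an unadjusted interaction p under 0.05, and the difference between the medians was not tested.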
